A study of Mus musculus with 17 samples.

Results

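The genes described here carry the signal of the toll-like receptors (TLRs) from the receptor to NF-kB: the adaptors, the kinases and ubiquitin ligases behind them, the NF-kB subunits, the IkB proteins and the inhibitors of the path. They were chosen as a list of 38 genes by function, with the receptors left out and with earlier results of these data known. On the Affymetrix MoGene 2.0 array 34 of the 38 had a probe set that names the gene alone, 1 each, out of 22180 genes measured in this way in the series, and *Irak4*, *Traf3*, *Chuk* and *Nfkb1* were not analysed here. Levels are log2 intensities, and a difference of 1 is a doubling. RNA came from 5 groups of sorted cells of mice aged 8 to 12 weeks. DT-Ly6C+ monocytes (4 arrays) and PBS-Ly6C+ monocytes (4 arrays) were spleen CD11b+ CD115high Ly6Chigh cells of CD11c-DTR mice 48 h after diphtheria toxin (DT) or PBS. In these mice the CD11c (*Itgax*) promoter drives the toxin receptor, fused to EGFP, so that DT removes CD11c+ cells, and both heterozygous and homozygous carriers were used. G-CSF-Ly6C+ monocytes (3 arrays) were spleen Ly6Chigh monocytes labelled as induced by Flt3L and G-CSF. In the study's methods C57BL/6 mice without the transgene received G-CSF under the skin for several days, and their PBS vehicle controls were not analysed here. Ly6Cneg monocytes (3 arrays) were spleen CD11b+ CD115high cells without Ly6C, labelled as taken from PBS-injected mice, whereas a legend of the study gives C57BL/6 mice. The cMoPs (3 arrays), the committed precursors of monocytes, were CD117+ CD115+ Ly6C+ cells without CD135 or CD11b from the bone marrow of untreated C57BL/6 mice. A sample was 1 mouse or a pool of mice.

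TLRs on myeloid cells recognise microbial products and recruit adaptors with a TIR domain. MyD88, bridged by TIRAP at some receptors, assembles the IRAK kinases and the ubiquitin ligase TRAF6, which activate the kinase TAK1 and through it the IKK complex. TRIF, the product of *Ticam1*, reaches the same kinases and also TBK1 and IKK-epsilon, which act on interferon regulatory factors. IKK marks the IkB proteins for destruction and so frees NF-kB dimers, whose target genes include several IkB proteins and the deubiquitinase A20 (*Tnfaip3*). These proteins are controlled largely by modification and location, which an array of RNA does not measure.

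By their names the arrays form a pair of series, A and B. All Ly6Cneg and cMoP arrays were in series A together with 1 DT and 1 PBS array (A1 each), 8 arrays in all, and all G-CSF arrays were in series B with the other 3 DT and 3 PBS arrays, 9 in all. Every difference between groups below was fitted within a series, and levels are set side by side across series only as a description. The PBS arrays of series B stood apart. *Kit* lay at 5.12 to 6.24 in the DT and at 10.85 to 11.05 in the PBS arrays of this series, and *Mpo*, a granule enzyme of immature myeloid cells, at 6.25 to 6.84 in DT and 12.15 to 12.23 in PBS arrays. *Ly6g*, the neutrophil antigen that a lineage gate of the study excludes in some experiments, lay at 6.60 to 6.71 in these DT and at 10.32 to 10.99 in these PBS arrays. The sort markers were higher in DT arrays, with *Csf1r* at 11.52 to 11.70 in DT and 9.47 to 9.52 in PBS arrays and *Ly6c2* at 12.93 to 13.01 in DT and 11.32 to 11.38 in PBS arrays. PBS A1 had none of this (*Kit* 5.82, *Mpo* 6.82, *Ly6g* 3.56) and did not group with the other arrays of its label, since its correlation over all genes was 0.974 to 0.976 with each DT array of series B but 0.918 to 0.923 with each PBS array there. Whether the labels of the PBS arrays are right could not be settled, and every difference from PBS-Ly6C+ monocytes is one from the arrays so labelled. In RNA of sorted populations, fewer cells of a type and less RNA per cell cannot be told apart.

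**Figure D1:**
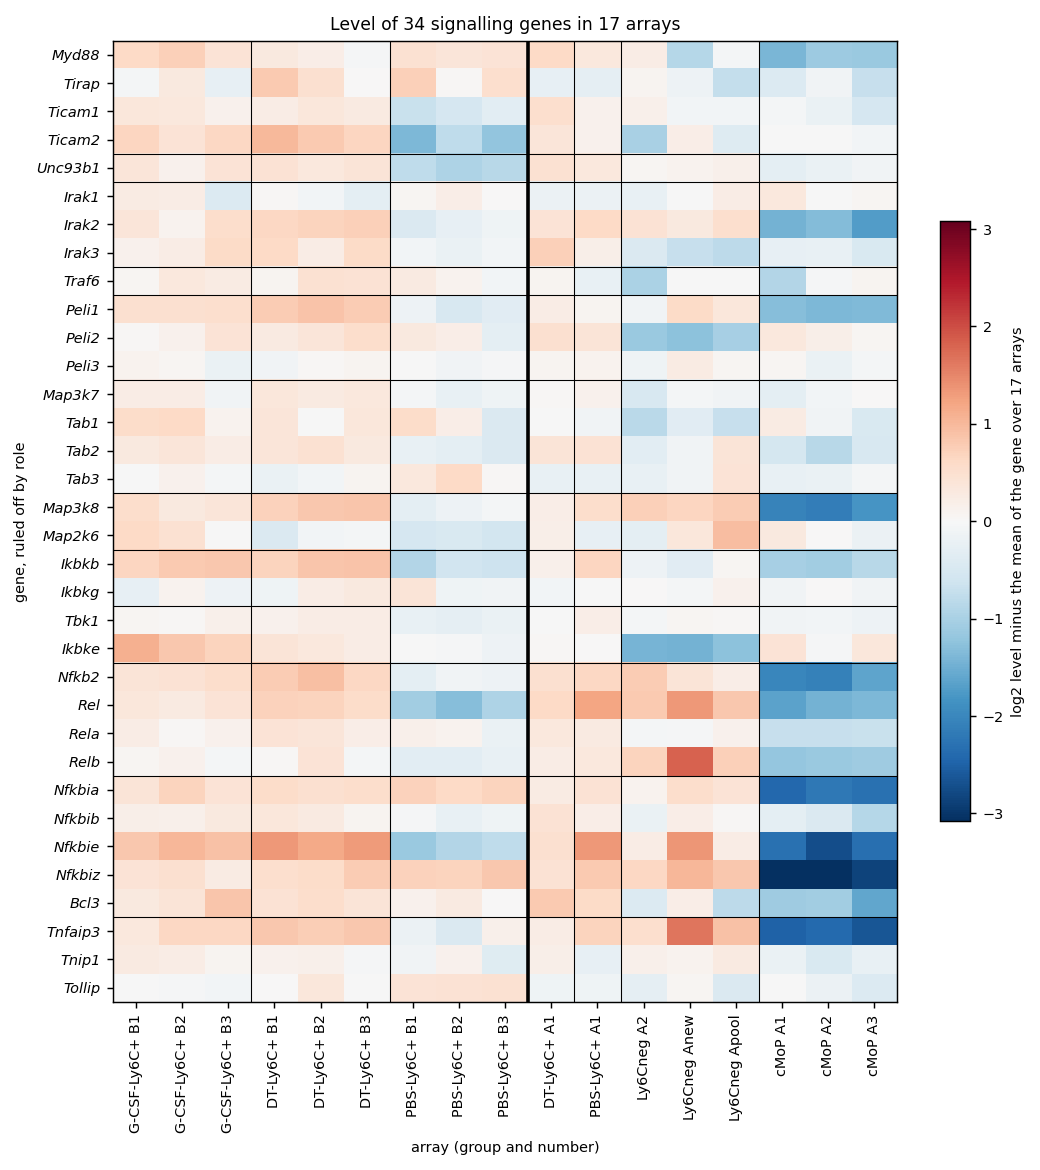
Log2 level of each of the 34 genes (rows, ruled off by role) in each of the 17 arrays (columns), shown as the level minus the mean of that gene over all arrays. The thick line divides series B (left) from series A (right). *Nfkbie* and *Rel* are low in the 3 PBS arrays of series B but not in PBS A1, and *Nfkbiz*, *Nfkbia* and *Tnfaip3* are lowest in the 3 cMoP arrays.

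Several genes of this path lie under NF-kB themselves, so the stretch of 250 bases before each annotated transcription start was searched on both strands for the kB consensus. RefSeq windows (GRCm38.p6) were used for 27 of the 34 genes, since some had none at hand and windows on 1 chromosome were left out. Of the 27, 8 (29.6%) held a match, namely *Irak1*, *Map3k7*, *Nfkb2*, *Rel*, *Nfkbia*, *Nfkbie*, *Tnfaip3* and *Tnip1*. Of 27025 genes with a window, for which no chromosome was left out, 2225 (8.2%) held one. A match describes letters and does not show binding. The windows of the 5 genes with a match that differed by over 2 log2 units between Ly6Cneg monocytes and cMoPs are shown, 5′ to 3′ along the gene and ending at the base before the start, with bases inside a match in capitals. They were thus picked by their difference, and a link between match and difference was not tested. The other genes with a match differed by -0.13 (*Irak1*), -0.09 (*Map3k7*) and 0.48 (*Tnip1*) in that comparison. *Nfkb2* lies at chr19:46304487-46304736 (plus strand), *Rel* at chr11:23770970-23771219 (minus strand), *Nfkbia* at chr12:55492648-55492897 (minus strand), *Nfkbie* at chr17:45555450-45555699 (plus strand) and *Tnfaip3* at chr10:19015411-19015660 (minus strand).
Nfkb2: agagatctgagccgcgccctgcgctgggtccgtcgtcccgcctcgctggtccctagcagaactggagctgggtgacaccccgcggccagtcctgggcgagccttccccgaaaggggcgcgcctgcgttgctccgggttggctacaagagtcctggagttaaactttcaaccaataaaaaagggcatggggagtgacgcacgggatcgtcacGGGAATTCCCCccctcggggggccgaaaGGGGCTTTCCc
Rel: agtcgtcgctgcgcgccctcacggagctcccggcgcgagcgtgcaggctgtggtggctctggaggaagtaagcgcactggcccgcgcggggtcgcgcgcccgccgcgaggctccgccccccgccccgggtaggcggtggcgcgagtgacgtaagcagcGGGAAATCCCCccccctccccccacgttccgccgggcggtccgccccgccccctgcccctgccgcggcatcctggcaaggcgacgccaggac
Nfkbia: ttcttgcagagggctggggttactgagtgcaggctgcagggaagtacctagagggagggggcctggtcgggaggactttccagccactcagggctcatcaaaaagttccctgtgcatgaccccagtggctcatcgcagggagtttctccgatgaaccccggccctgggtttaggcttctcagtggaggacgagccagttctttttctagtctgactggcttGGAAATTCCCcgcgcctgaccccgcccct
Nfkbie: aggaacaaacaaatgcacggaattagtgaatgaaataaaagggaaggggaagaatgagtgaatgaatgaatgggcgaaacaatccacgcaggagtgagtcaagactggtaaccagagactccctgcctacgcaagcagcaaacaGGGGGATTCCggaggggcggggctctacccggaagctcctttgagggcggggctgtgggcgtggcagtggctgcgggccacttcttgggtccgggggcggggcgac
Tnfaip3: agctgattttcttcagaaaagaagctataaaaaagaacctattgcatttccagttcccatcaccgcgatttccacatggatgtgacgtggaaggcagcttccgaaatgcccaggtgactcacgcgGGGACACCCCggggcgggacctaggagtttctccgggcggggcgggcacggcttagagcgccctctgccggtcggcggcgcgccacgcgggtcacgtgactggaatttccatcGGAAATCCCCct
In *Nfkb2* 3 matches began 39, 38 and 11 bases before the start, the first of them reading as a match on both strands. *Rel* held overlapping matches that began 92 and 91 bases before it. *Nfkbia* had 1 match, 29 bases before the start, and *Nfkbie* 1, 106 bases before it. The matches of *Tnfaip3* began 125 and 12 bases before the start.

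DT-Ly6C+ monocytes were compared with PBS-Ly6C+ monocytes to ask whether the path downstream of the TLRs differs in the cells that appear once CD11c+ cells are removed. In series B, 15 of the 34 genes rose in DT-Ly6C+ monocytes, 0 fell and 19 did not pass the test (limma, adjusted p below 0.05 over all genes, 3 arrays each). Of all genes 19.5% were called, 9.46% as rising and 10% as falling. The 34 genes were brighter than most, with 0 under the median gene (lowest mean level 6.26, median gene 5.66). With dim genes (mean level under 4.78) left out, 28.2% of the 15526 genes kept were called in either direction. This cut lies below the lowest of the 34 genes, so it does not match their brightness. The share of 44.1%, all of it rises, lay above both backgrounds. Because the list was chosen with earlier results of these data known, this describes the list and is not a test. The median difference of the 34 genes was 0.38, against 0.02 for all genes. Rises were found in nearly every role, and each role also held genes that did not pass, apart from the single trafficking gene. The TRAF gene *Traf6*, the ligase shared by the MyD88 and TRIF arms, differed by 0.24 (adjusted p = 0.637 in limma).

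Among the adaptors the TRIF arm rose. *Ticam2*, which encodes TRAM, the adaptor that links TLR4 to TRIF inside the cell, had levels of 9.17, 8.98 and 8.84 in DT-Ly6C+ and of 6.80, 7.39 and 6.95 in PBS-Ly6C+ monocytes. Every DT array lay above every PBS array, by 1.95 on average (standard error 0.23, adjusted p = 1.16e-05), or 3.86-fold. *Ticam1* rose by 0.80 (standard error 0.14, adjusted p = 0.000621). *Myd88* differed by -0.26 (adjusted p = 0.496), although its 3 DT arrays (8.94 to 9.29) lay below its 3 PBS arrays (9.35 to 9.44), and *Tirap* by 0.01 (adjusted p = 0.989). *Unc93b1*, whose product carries the nucleic-acid-sensing TLRs to endosomes, had levels of 11.38, 11.28 and 11.34 in DT-Ly6C+ and 10.17, 9.99 and 10.09 in PBS-Ly6C+ monocytes. This rise of 1.25 (standard error 0.12, adjusted p = 1.03e-06) was large next to the spread of either group.

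Of the IRAK genes, *Irak2*, a kinase-like relay of sustained signalling, had levels of 9.48, 9.52 and 9.57 in DT-Ly6C+ and 8.39, 8.57 and 8.69 in PBS-Ly6C+ monocytes. The groups did not overlap, and the rise was 0.97 (standard error 0.14, adjusted p = 0.000108). *Irak3*, which encodes the inhibitory IRAK-M, rose by 0.60 (adjusted p = 0.0113), a call lost without DT B1 (adjusted p = 0.0541) or DT B3 (adjusted p = 0.0514), and *Irak1* differed by -0.20 (adjusted p = 0.529). *Peli1*, a ubiquitin ligase that binds IRAKs, stood at 9.40, 9.50 and 9.40 in DT-Ly6C+ and at 8.46, 8.13 and 8.27 in PBS-Ly6C+ monocytes. It rose by 1.15 (standard error 0.15, adjusted p = 4.31e-05), whereas its relatives *Peli2* (0.33, adjusted p = 0.206) and *Peli3* (0.05, adjusted p = 0.854) did not pass the test.

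In the TAK1 complex *Tab2*, an adaptor that binds ubiquitin chains, had levels of 9.96, 10.06 and 9.88 in DT-Ly6C+ and 9.37, 9.29 and 9.14 in PBS-Ly6C+ monocytes. It rose by 0.70 (standard error 0.17, adjusted p = 0.00631) with no overlap of the arrays. With an additive term for the array series, which brings in PBS A1, the calls of *Tab2* (adjusted p = 0.0541), *Map3k7* (0.172), *Tbk1* (0.153) and *Tnfaip3* (0.135) were lost, and that of *Rel* was lost with no series term (1.17, adjusted p = 0.0623). *Map3k7*, the gene of TAK1, rose by 0.45 (adjusted p = 0.0398), but leaving out any single array of the 6 ended the call (adjusted p = 0.0635 to 0.126). *Tab1* (0.12) and *Tab3* (-0.39) did not pass. *Map3k8*, which encodes TPL2, the kinase that NF-kB p105 holds and that drives the ERK arm, stood at 8.54, 8.65 and 8.69 in DT-Ly6C+ and at 7.53, 7.66 and 7.77 in PBS-Ly6C+ monocytes. The difference of 0.97 (standard error 0.13, adjusted p = 3.1e-05) was many times the spread within the groups.

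*Ikbkb*, the gene of IKK-beta, the main kinase of IkB proteins, gave one of the clearest separations. Its levels were 9.97, 10.15 and 10.16 in DT-Ly6C+ and 8.37, 8.70 and 8.65 in PBS-Ly6C+ monocytes, a rise of 1.52 (standard error 0.14, adjusted p = 6.76e-07) or 2.87-fold. *Ikbkg*, which encodes the regulatory subunit NEMO, differed by 0.08 (adjusted p = 0.807). Of the IKK-related kinases *Tbk1* had levels of 8.76, 8.85 and 8.85 in DT-Ly6C+ and 8.39, 8.34 and 8.43 in PBS-Ly6C+ monocytes, a small rise of 0.44 (standard error 0.11, adjusted p = 0.00754). *Ikbke* differed by 0.38 (adjusted p = 0.0829), with its arrays again apart (7.44 to 7.60 in DT-Ly6C+, 7.05 to 7.19 in PBS-Ly6C+ monocytes).

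Among the NF-kB subunits *Rel*, which encodes c-Rel, had levels of 11.27, 11.25 and 11.13 in DT-Ly6C+ and 9.50, 9.26 and 9.62 in PBS-Ly6C+ monocytes. It rose by 1.76 (standard error 0.15, adjusted p = 3.98e-07), or 3.39-fold. *Nfkb2*, which encodes the p100 precursor of p52, rose by 0.97 (standard error 0.16, adjusted p = 0.000302). *Rela*, the gene of the transactivating subunit p65 (0.31, adjusted p = 0.113), and *Relb*, the partner of p52 (0.43, adjusted p = 0.236), did not pass, although their 3 DT arrays lay above the 3 PBS arrays. The IkB proteins split. *Nfkbie*, the gene of IkB-epsilon, whose window with its kB match is printed above, had levels of 10.07, 9.90 and 10.04 in DT-Ly6C+ and 7.58, 7.83 and 7.95 in PBS-Ly6C+ monocytes. Its rise of 2.22 (standard error 0.24, adjusted p = 4.34e-06), or 4.65-fold, was the largest of the 34 genes in this comparison. *Nfkbia*, the gene of IkB-alpha, which also has a kB match, stood at 11.57, 11.50 and 11.53 in DT-Ly6C+ and at 11.72, 11.61 and 11.68 in PBS-Ly6C+ monocytes, a difference of -0.13 (95% interval -0.42 to 0.15). *Nfkbiz* (-0.12), *Nfkbib* (0.37) and the atypical IkB protein gene *Bcl3* (0.33) did not pass either. *Tnfaip3* had levels of 9.63, 9.56 and 9.64 in DT-Ly6C+ and 8.62, 8.36 and 8.96 in PBS-Ly6C+ monocytes and rose by 0.97 (standard error 0.22, adjusted p = 0.00514). The other inhibitors, *Tnip1*, a partner of A20 (0.19), and *Tollip* (-0.33), did not pass.

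**Figure D2:**
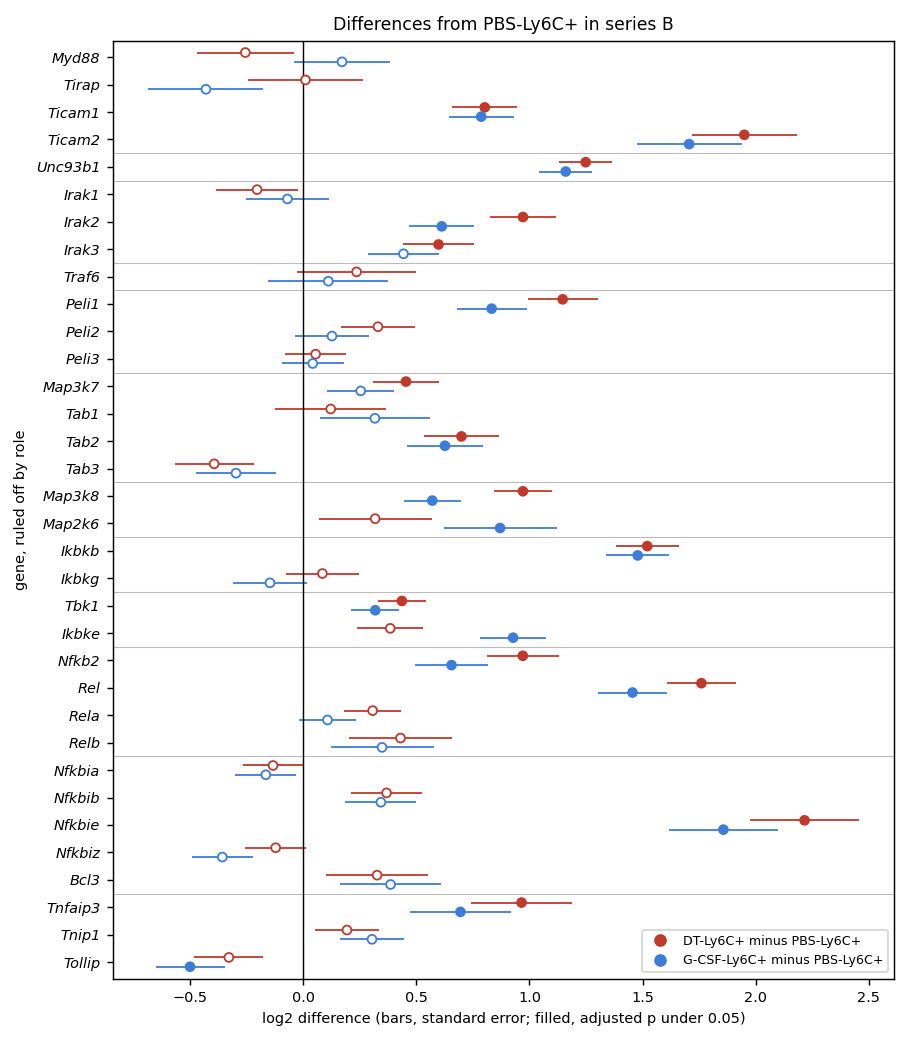
Log2 difference of DT-Ly6C+ (red) and G-CSF-Ly6C+ (blue) from PBS-Ly6C+ monocytes for the 34 genes in series B, 3 arrays a group, with bars for the standard error and filled points for an adjusted p below 0.05. Both comparisons use the same 3 PBS arrays. *Nfkbie* (2.22 and 1.86) and *Ticam2* (1.95 and 1.71) lie farthest to the right, followed by *Rel* (1.76 and 1.46) and *Ikbkb* (1.52 and 1.48). *Tollip* lies left of 0 in both.

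The rises moved together with lists of monocyte genes and of other cell types. In DT-Ly6C+ against PBS-Ly6C+ monocytes of series B, 14 of 15 stem and progenitor genes fell, with a mean level per array of 5.84 to 6.00 in DT and 9.67 to 9.74 in PBS arrays. Of the neutrophil genes 10 of 14 fell (mean level 8.95 to 9.13 in DT and 11.15 to 11.19 in PBS arrays), and of the T cell genes 6 of 9 (5.07 to 5.11 in DT and 6.70 to 6.82 in PBS arrays). All 14 measured cell cycle genes fell (6.69 to 6.93 in DT and 9.18 to 9.33 in PBS arrays), while 8 of 10 Ly6C+ monocyte genes rose (10.55 to 10.62 in DT and 8.74 to 8.78 in PBS arrays), as did 8 of 11 Ly6Cneg monocyte genes (9.84 to 10.13 in DT and 8.10 to 8.22 in PBS arrays). No list had a gene at 0, since the values are log2 intensities. The part of these cells in the differences of the 34 genes was not tested. *Nfkbia* and *Nfkbiz* had levels of 11.61 to 11.72 and 9.67 to 9.81 in the PBS arrays of series B, close to those of the DT arrays there. Which cells gave these levels was not tested.

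In series A, with 1 array each, 0 of the 34 genes were called between DT A1 and PBS A1 (0.0225% of all genes were, by limma with the spread of all 17 arrays), and 1 of the 34 had an unadjusted p below 0.05, as did 1777 of all 22180 genes. *Nfkbie* had a level of 9.22 in DT A1 and 10.07 in PBS A1, a difference of -0.86. *Rel* stood at 11.17 in DT A1 and 11.79 in PBS A1, and *Ikbkb* at 9.44 in DT A1 and 9.94 in PBS A1. PBS A1 lay 0.07 from the mean of the DT arrays of series B for *Nfkbie* and 0.16 from it for *Ikbkb*, whereas for *Rel* it stood 0.57 above that mean and above every DT array. In 24 of the 34 genes, and in 13 of the 15 that rose, it was closer to the mean of the DT arrays of series B than to that of the PBS arrays. The same count was not made over all genes. PBS A1 lay with these DT arrays over all genes too (correlation 0.974 to 0.976, against 0.918 to 0.923 with the PBS arrays), so the count is not read as a trait of the 34 genes. The DT difference itself differed between the series for 8 of the 34 genes (8.3% of all genes did), all larger in series B. The gap was 3.07 for *Nfkbie* (standard error 0.48, adjusted p = 0.000723), 2.38 for *Rel* (adjusted p = 0.000151) and 2.02 for *Ikbkb* (adjusted p = 0.000255). *Irak3* differed alike in both, by 0.60 in series B and 0.57 in series A, with a gap of 0.03 (standard error 0.31). The rises against PBS-Ly6C+ monocytes therefore rest on the 3 PBS arrays of series B, and the array series and the position of PBS A1 cannot be told apart.

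**Figure D3:**
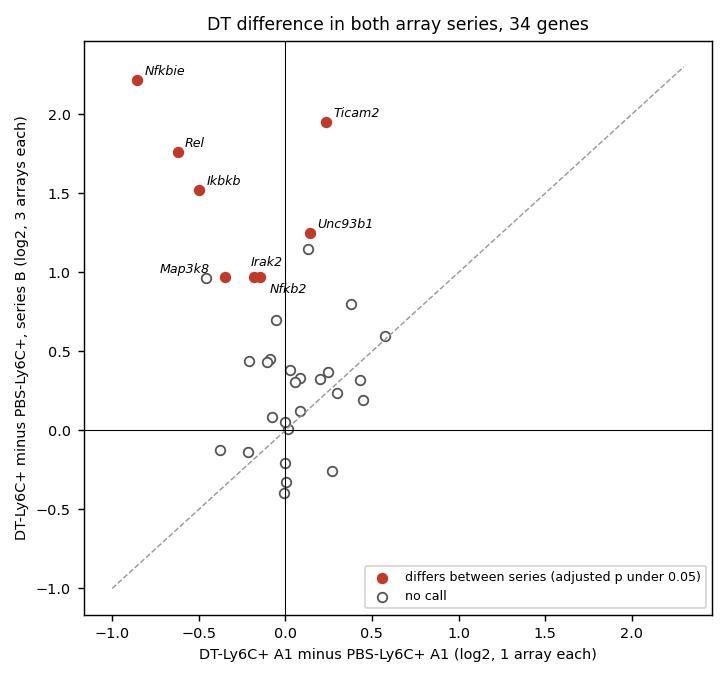
DT minus PBS difference (log2) of each of the 34 genes in series A (x axis, 1 array each) and in series B (y axis, 3 arrays each). The dashed line marks equal differences, and red points are the 8 genes whose differences passed the test of the series (limma). *Nfkbie*, *Rel* and *Ikbkb* lie above 1.5 in series B and below 0 in series A.

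G-CSF-Ly6C+ monocytes were set against the same PBS arrays. Of the 34 genes 15 rose, 1 fell and 18 did not pass the test, where 18.9% of all genes were called (9.13% rose and 9.8% fell). With dim genes left out, 26.8% of the genes kept were called. The median difference was 0.35, against 0.06 for all genes. *Nfkbie* had levels of 9.55, 9.75 and 9.63 in G-CSF-Ly6C+ monocytes, *Ticam2* of 8.84, 8.60 and 8.82, *Rel* of 10.91, 10.83 and 10.996 and *Ikbkb* of 9.94, 10.09 and 10.13. All 4 stood above every PBS array, with rises of 1.86, 1.71, 1.46 and 1.48 (adjusted p of 5.09e-05 or less in limma). *Map2k6*, the kinase upstream of p38, passed the test here and not in DT-Ly6C+ monocytes. Its levels were 7.18, 7.02 and 6.56 in G-CSF-Ly6C+, 6.13, 6.48 and 6.50 in DT-Ly6C+ and 6.05, 6.11 and 6.00 in PBS-Ly6C+ monocytes, a rise over PBS of 0.87 (adjusted p = 0.0215) that was lost without G-CSF B1, G-CSF B2, PBS B1 or PBS B3 (adjusted p = 0.0567 to 0.0865). *Ikbke*, which encodes IKK-epsilon, had 8.30, 8.02 and 7.88 in G-CSF-Ly6C+, 7.60, 7.53 and 7.44 in DT-Ly6C+ and 7.19, 7.18 and 7.05 in PBS-Ly6C+ monocytes. The 3 groups did not overlap, and the rise over PBS was 0.93 (standard error 0.15, adjusted p = 0.00022). *Tollip*, an inhibitor that binds IRAK1, had 7.50, 7.48 and 7.43 in G-CSF-Ly6C+ and 7.95, 7.98 and 7.99 in PBS-Ly6C+ monocytes and fell by 0.50 (adjusted p = 0.0296). This call and that of *Tbk1* (0.32, adjusted p = 0.0488) each ended when any single array of the 6 was left out (adjusted p = 0.0568 to 0.131). *Tnfaip3* (0.69, adjusted p = 0.0403) was lost without 4 of the 6 arrays taken 1 at a time, and *Tab2* (0.63, adjusted p = 0.0138) without PBS B3 (adjusted p = 0.0572).

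Between G-CSF-Ly6C+ and DT-Ly6C+ monocytes 0 of the 34 genes were called, and 14 of all genes (0.0631%) were, 0.0361% higher and 0.0271% lower in G-CSF-Ly6C+ monocytes. At an unadjusted p below 0.05 there were 4 of the 34 and 1662 of all 22180 genes. The 4 were higher in G-CSF-Ly6C+ for *Ikbke* (0.54, 95% interval 0.23 to 0.85) and *Map2k6* (0.55, interval 0.02 to 1.08) and lower for *Map3k8* (-0.40, interval -0.67 to -0.13) and *Irak2* (-0.36, interval -0.66 to -0.05). For the genes with the largest rises over PBS the intervals were -0.87 to 0.15 for *Nfkbie*, -0.63 to 0.02 for *Rel*, -0.74 to 0.25 for *Ticam2* and -0.34 to 0.25 for *Ikbkb*. For the other 30 genes the interval held 0, and over the 34 genes no interval reached below -0.98 or above 1.08. The progenitor list had a mean level of 5.91 to 6.15 in G-CSF and 5.84 to 6.00 in DT arrays, and the neutrophil list of 8.52 to 8.60 in G-CSF and 8.95 to 9.13 in DT arrays. Strain, transgene and injection schedule differ between these groups along with the treatment.

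**Figure D4:**
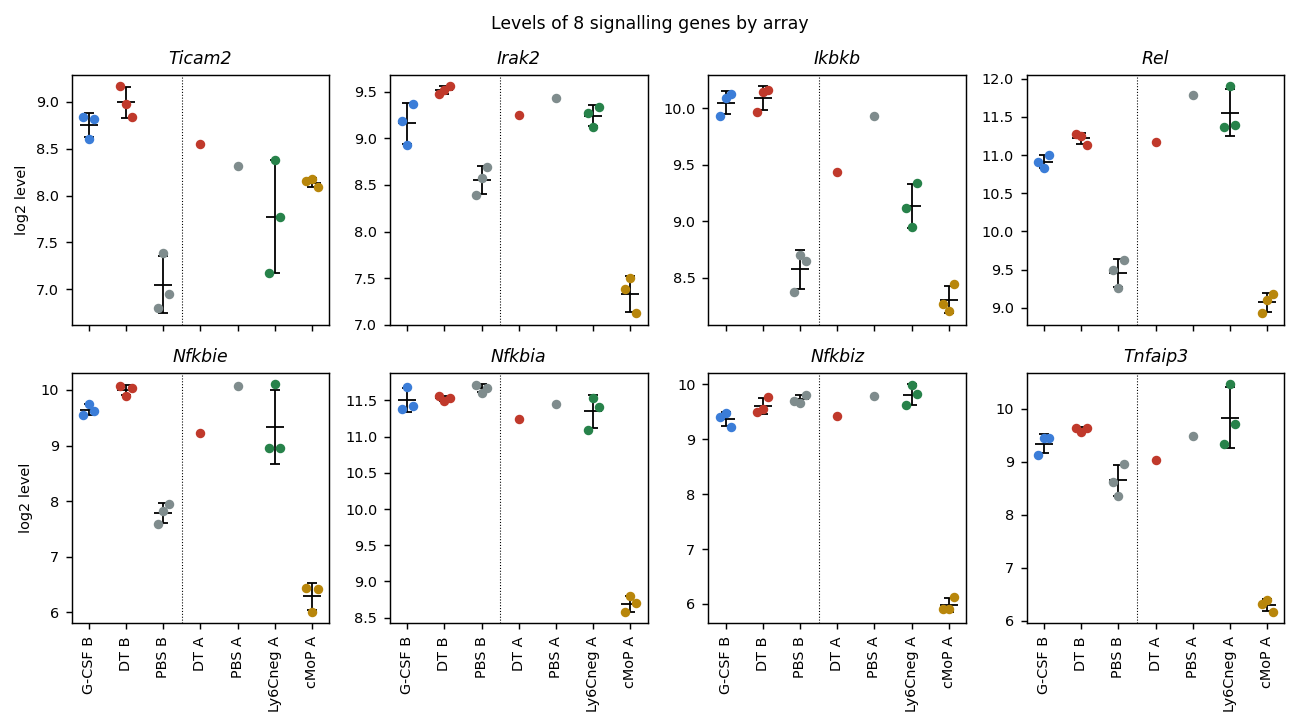
Log2 level of 8 of the genes in every array, by group and series, with the mean and SD (black) where a group has 3 arrays. The dotted line divides series B (left) from series A (right). PBS A1 lies with the series B DT arrays for *Nfkbie* (10.07) and above them for *Rel* (11.79), and the cMoP arrays have the lowest mean for every gene shown but *Ticam2*.

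Ly6Cneg monocytes were compared with cMoPs as the end and the start of monocyte development among the sorted groups. Of the 34 genes 17 rose in Ly6Cneg monocytes, 2 fell and 15 did not pass (limma, 3 arrays each), where 32.9% of all genes were called (13.5% rose and 19.4% fell). With dim genes left out, 46.5% of the genes kept were called. The median difference was 0.40, against 0.07 for all genes. All 4 NF-kB subunits and all 5 IkB proteins rose, as did 1 of 4 adaptors, 1 of 3 IRAKs and 1 of 4 genes of the TAK1 complex, and *Traf6* did not pass. *Nfkbiz*, an atypical IkB protein that acts in the nucleus, had levels of 9.63, 9.996 and 9.82 in Ly6Cneg monocytes and 5.91, 5.90 and 6.12 in cMoPs. The difference of 3.84 (standard error 0.14, adjusted p = 8.07e-12), or 14.3-fold, was the largest of the 34 genes in any comparison. *Tnfaip3* stood at 9.33, 10.46 and 9.71 in Ly6Cneg monocytes and at 6.32, 6.40 and 6.17 in cMoPs, a rise of 3.53 (standard error 0.22, adjusted p = 5.26e-09).

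*Nfkbie* had levels of 8.95, 10.10 and 8.95 in Ly6Cneg monocytes and 6.44, 6.00 and 6.42 in cMoPs and rose by 3.05 (adjusted p = 6.37e-08). *Nfkbia* stood at 11.10, 11.53 and 11.42 in Ly6Cneg monocytes and at 8.58, 8.79 and 8.70 in cMoPs, a rise of 2.66 (adjusted p = 4.58e-10) in a gene that did not pass between DT-Ly6C+ and PBS-Ly6C+ monocytes. *Rel* rose by 2.49 (adjusted p = 3.76e-09) and *Nfkb2* by 2.36 (adjusted p = 1.12e-08). *Relb* had 8.09, 9.21 and 8.13 in Ly6Cneg monocytes, the array Anew being the high one, and 6.21, 6.25 and 6.31 in cMoPs. Its rise was 2.22 (adjusted p = 1.16e-06), or 1.85 without Anew. *Rela* rose less, by 0.71 (adjusted p = 0.000306), with levels of 9.44, 9.46 and 9.62 in Ly6Cneg monocytes and 8.78, 8.79 and 8.81 in cMoPs. *Bcl3* rose by 0.92 (adjusted p = 0.00413) and *Nfkbib*, the gene of IkB-beta, by 0.55 (adjusted p = 0.0131), and the call of *Nfkbib* was lost without cMoP A3 (adjusted p = 0.0837), without Ly6Cneg Anew (adjusted p = 0.0583) or with the arrays of series A alone (adjusted p = 0.0671).

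Upstream of NF-kB, *Map3k8* had levels of 8.55, 8.47 and 8.61 in Ly6Cneg monocytes and 5.76, 5.69 and 6.01 in cMoPs, a rise of 2.73 (standard error 0.13, adjusted p = 1.75e-10). *Irak2* rose by 1.92, *Peli1* by 1.63 and *Ikbkb* by 0.83 (adjusted p of 0.000179 or less). *Myd88* stood at 9.21, 8.10 and 8.92 in Ly6Cneg monocytes and at 7.59, 7.86 and 7.83 in cMoPs, so that Anew was close to the cMoP arrays, and rose by 0.98 (adjusted p = 0.00178). *Tab2* (0.62, adjusted p = 0.00849) was lost without cMoP A2 (adjusted p = 0.0511) or with series A alone (adjusted p = 0.0624), and *Tnip1* (0.48, adjusted p = 0.0147) without cMoP A2 (adjusted p = 0.0756) or Ly6Cneg Apool (adjusted p = 0.0519). The falls were those of *Ikbke*, with 5.78, 5.75 and 5.94 in Ly6Cneg monocytes and 7.61, 7.16 and 7.55 in cMoPs (-1.62, adjusted p = 2.89e-07), and of *Peli2*, with 5.64, 5.52 and 5.77 in Ly6Cneg monocytes and 7.11, 6.96 and 6.85 in cMoPs (-1.33, adjusted p = 8.98e-06). Neither overlapped between the groups.

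The Ly6Cneg arrays also carried genes of other cells. Against cMoPs 7 of 9 B cell genes rose (mean level 5.96 to 7.54 in Ly6Cneg and 5.04 to 5.17 in cMoP arrays), 6 of 8 NK cell genes (6.60 to 8.45 in Ly6Cneg and 4.97 to 5.0 in cMoP arrays) and 8 of 10 dendritic cell genes (8.83 to 9.72 in Ly6Cneg and 6.18 to 6.39 in cMoP arrays), while 11 of 15 progenitor genes, 4 of 14 neutrophil genes (6 others rose) and all 14 cell cycle genes fell. Anew was low for *Cd79a* and *Ncr1* (5.85 and 4.91, against 8.85 and 8.27 in A2 and 8.99 and 7.61 in Apool). It was high for *Kit* (10.28). *Cd22* and *Klrd1*, the B cell gene and the NK cell gene with the largest rise over cMoPs, varied little between the Ly6Cneg arrays, Anew included. *Cd22* had a mean level of 9.13 in these arrays (SD 0.115) and *Klrd1* a mean level of 11.36 (SD 0.077). The genes next in rise in these lists varied more, with an SD of 1.77 for *Cd79a*, 1.31 for *Ms4a1*, 2.88 for *Gzma* and 0.78 for *Gzmb*. Anew was thus not low for every gene of these lists. The counts of the 34 genes were 19 of 34 without Anew, 20 without A2 and 18 without Apool. Of all genes 31%, 29.9% and 30.7% were called in these runs. The spleens were digested with collagenase, a step not described for the marrow. A list of 10 immediate-early genes, chosen after the results were seen and not tested, had a mean level of 10.76 to 11.21 in Ly6Cneg and 8.10 to 8.26 in cMoP arrays, and *Fos* had 10.35 to 10.53 in Ly6Cneg and 7.96 to 8.21 in cMoP arrays. Across the spleen arrays of series B the list lay at 10.33 to 10.36 in G-CSF, 10.46 to 10.59 in DT and 9.99 to 10.13 in PBS arrays. Tissue, digestion and cell type cannot be told apart in the comparison with cMoPs.

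**Figure D5:**
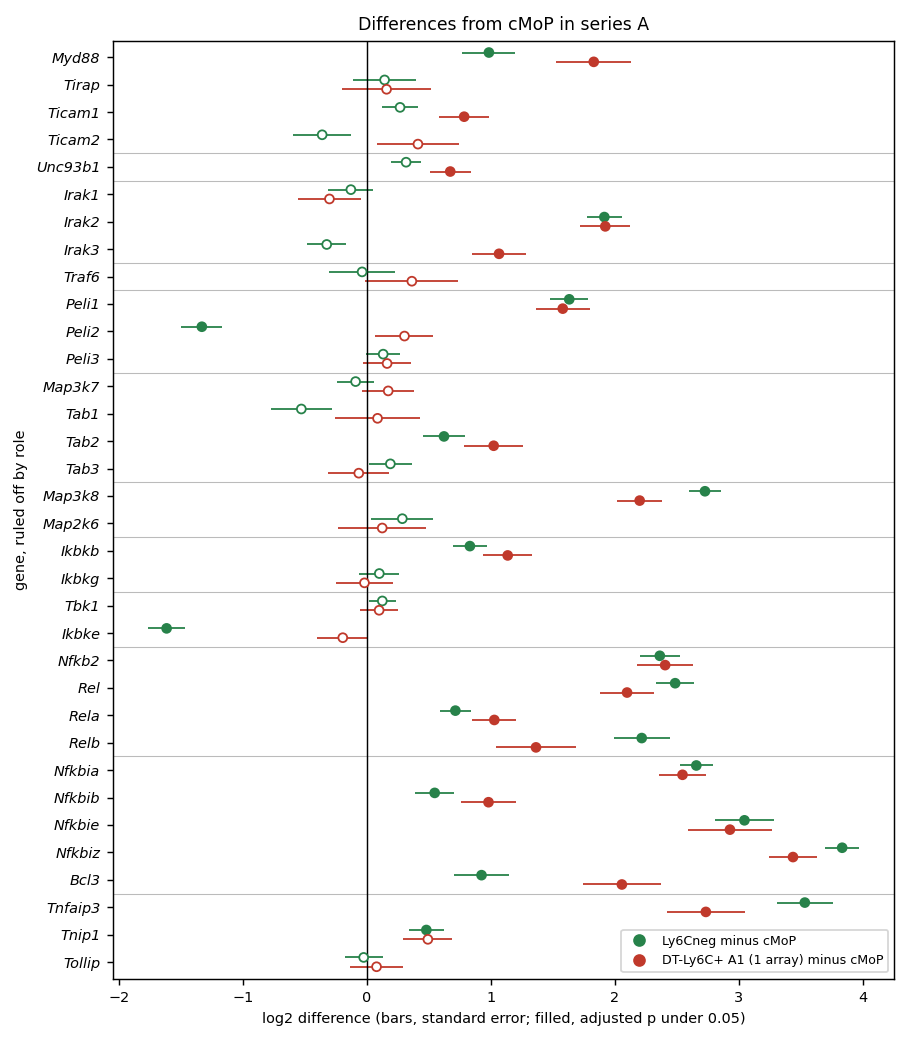
Log2 difference from cMoPs of Ly6Cneg monocytes (green, 3 arrays) and of the single array DT A1 (red) for the 34 genes in series A, with bars for the standard error and filled points for an adjusted p below 0.05. All NF-kB subunits and IkB proteins lie right of 0 in both, while *Ikbke* (-1.62) and *Peli2* (-1.33) lie left of 0 in Ly6Cneg monocytes.

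The single array DT A1 was set against the same cMoP arrays, its spread being taken as that of the other groups, so these values have no replicate check on the DT side. Of the 34 genes 19 rose, 0 fell and 15 did not pass, where 17.1% of all genes were called (8.07% rose and 9.04% fell). The median difference was 0.88, against 0.05 for all genes. *Nfkbiz* (9.42 in DT A1) rose by 3.44, *Nfkbie* (9.22) by 2.93, *Tnfaip3* (9.03) by 2.74 and *Nfkbia* (11.24) by 2.55 (adjusted p of 1.02e-05 or less). All 4 NF-kB subunits and all 5 IkB proteins rose here too, against the cMoP arrays used above. With the arrays of series A alone the calls of *Relb* (adjusted p = 0.0769), *Nfkbib* (0.0539), *Tab2* (0.0673) and *Ticam1* (0.0595) were lost. *Myd88* (9.59 in DT A1) rose by 1.83 (adjusted p = 0.000322), *Ticam1* by 0.78, *Unc93b1* by 0.67 and *Irak3* by 1.07.

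Between DT A1 and the Ly6Cneg arrays 4 of the 34 genes rose, 0 fell and 30 did not pass, where 7.9% of all genes were called (5.83% rose and 2.07% fell), so 11.8% of the 34 lay near the background. *Peli2* had a level of 7.28 in DT A1, against 5.64, 5.52 and 5.77 in Ly6Cneg monocytes (1.64, adjusted p = 0.000362). *Ikbke* stood at 7.24 in DT A1, a rise of 1.42 (adjusted p = 0.000419), and *Irak3* at 8.91, against 7.73, 7.46 and 7.35 in Ly6Cneg monocytes (1.39, adjusted p = 0.000804). *Bcl3*, with 9.93 in DT A1 and 8.71, 9.34 and 8.33 in Ly6Cneg monocytes, rose by 1.13 (adjusted p = 0.0377), a call lost without Ly6Cneg A2 (adjusted p = 0.0673) or Apool (adjusted p = 0.0771). *Nfkb2* (0.04, 95% interval -0.44 to 0.52), *Nfkbia* (-0.11, interval -0.52 to 0.29), *Irak2* (0.01, interval -0.42 to 0.44) and *Nfkbie* (-0.12, interval -0.84 to 0.61) had small differences. *Tnfaip3* differed by -0.80 (interval -1.47 to -0.12, adjusted p = 0.167), and was called lower without Ly6Cneg A2 (-1.05, adjusted p = 0.0322). After quantile normalisation *Map3k8* (-0.78, adjusted p = 0.0183) and *Relb* (-1.07, adjusted p = 0.0489) were called lower and *Bcl3* was not called (adjusted p = 0.174). Of the marker lists 6 of 10 dendritic cell genes fell (mean level 7.34 in DT A1 and 8.83 to 9.72 in Ly6Cneg arrays) and 6 of 14 neutrophil genes rose (7.70 in DT A1 and 6.53 to 7.19 in Ly6Cneg arrays), and their part in these values was not tested. PBS A1 had levels of 7.19 for *Peli2*, 7.22 for *Ikbke*, 8.33 for *Irak3* and 9.72 for *Bcl3*, all above the highest Ly6Cneg array.

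Of the other genes of the path, a list of 42 measured regulators, 15 rose and 2 fell in DT-Ly6C+ against PBS-Ly6C+ monocytes of series B. The largest rises were those of *Irf7*, the interferon regulatory factor behind TLR7 and TLR9 (1.99), *Usp18*, a protease that removes ISG15 (1.85), *Tnip3* (1.29) and *Map3k1* (1.28). Of 16 TLRs and co-receptors 8 rose, led by *Tlr7* (3.12), *Ly86* (2.98), *Tlr9* (2.97) and *Cd180* (2.93), and *Tlr4*, the receptor of LPS, fell by 0.79. The 28 measured genes of the NF-kB target list went both ways, with 9 rises and 8 falls. *Cd83* (2.25) and *Cd40* (2.14), of antigen-presenting cells, rose, while *Saa3*, an acute-phase protein (-5.92), and *Vcam1*, an adhesion molecule (-2.37), fell. In Ly6Cneg monocytes against cMoPs the same 3 lists had 20 rises and 6 falls of 42, 10 and 0 of 16, and 19 and 1 of 28. There *Traf1*, a TRAF protein and NF-kB target, rose by 4.41, *Il1b* by 7.63 and *Ccl5* by 6.32. Between DT A1 and the Ly6Cneg arrays the target list had 4 rises and 5 falls.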

How the data were processed

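The authors hybridised RNA of sorted mouse monocytes and progenitors to Affymetrix MoGene 2.0 arrays and deposited log2 intensities per probe set, summarised and normalised by RMA in the oligo package of R (version not given in the sources used here). Whether batches had been adjusted in these values is not stated. Array medians were 5.31 to 5.53. Of 41345 probe sets 23521 named 1 symbol, 1820 several and 16004 none. The probe set with the highest mean was kept for each of 22180 genes, of which 21994 matched RefSeq by Entrez number. Groups came from the labels. A mean for each group in each array series was fitted over all 17 arrays with limma (version 3.58.1, R version 4.3.3), comparisons were made within a series, and p-values were adjusted (Benjamini-Hochberg, all genes together), with 0.05 as the threshold. The model was tested on simulated data. Since replicates were single mice or pools, p-values measure the spread between these arrays, whose number limits the precision. The members and lists were chosen with earlier results of these data known. Values in every array were given for the called members with the largest difference within each role between DT-Ly6C+ and PBS-Ly6C+ monocytes of series B and for members called elsewhere only. Of other lists up to 4 called genes with the largest difference were named, and *Tlr4*, *Mpo*, *Ly6g*, *Cd79a*, *Ncr1* and *Fos* were chosen after their values were seen. Promoter windows came from RefSeq (GRCm38.p6). Alternatives were other models of the array series, leaving out dim genes or 1 array, averaging probe sets, quantile normalisation, array weights, a trended prior and a replicate block.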

Additional observations from a re-analysis of the deposited data

Results flagged for a closer look

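In groups of 4 arrays (DT-Ly6C+ or PBS-Ly6C+ monocytes of both series), 7 of the 68 sets of values held 1 array far from the other 3. For 4 arrays drawn alike, chance gives about 1 in 20 such sets, but these sets mix the array series. The share over all genes was not computed, so the 7 are not read as a trait of the 34 genes. In 5 of the 7 sets the array apart was PBS A1, which stood high for *Unc93b1* (11.27), *Rel* (11.79), *Relb* (7.73) and *Nfkbie* (10.07) and low for *Tollip* (7.40). In the other sets it was DT A1, low for *Peli1* (8.84) and for *Tnfaip3* (9.03).

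The DT minus PBS difference of 8 genes was larger in series B than in series A (limma, adjusted p below 0.05 over all genes). The gap was 3.07 for *Nfkbie*, 2.38 for *Rel*, 2.02 for *Ikbkb*, 1.72 for *Ticam2*, 1.32 for *Map3k8*, 1.15 for *Irak2*, 1.12 for *Nfkb2* and 1.11 for *Unc93b1*. The difference in series A was below 0 for *Nfkbie* (-0.86), *Rel* (-0.62), *Ikbkb* (-0.50), *Map3k8* (-0.35), *Irak2* (-0.18) and *Nfkb2* (-0.15), and above 0 for *Ticam2* (0.23) and *Unc93b1* (0.14). It rests on DT A1 and PBS A1 alone.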

How the results depend on the processing

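The comparisons that involve PBS-Ly6C+ monocytes depended on how the array series was modelled. With an additive series term 11 of the 34 genes were called in DT-Ly6C+ against PBS-Ly6C+ monocytes, and 10 with no series term, against 15 in the model used above. The counts were 9 and 6 in G-CSF-Ly6C+ against PBS-Ly6C+ monocytes, against 16. For DT-Ly6C+ against Ly6Cneg monocytes the counts were 7 and 8, against 4. DT A1 against PBS A1, a comparison added after seeing the data, gave 0 genes, against 15 in series B, and turned the direction of *Irak2* (-0.18), *Map3k7* (-0.088), *Tab2* (-0.054), *Map3k8* (-0.35), *Ikbkb* (-0.50), *Tbk1* (-0.21), *Nfkb2* (-0.15), *Rel* (-0.62), *Nfkbie* (-0.86) and *Tnfaip3* (-0.46), none of them called. Over all genes the additive and the unadjusted model called 2770 and 1997 in DT-Ly6C+ against PBS-Ly6C+ monocytes (4319 above), 2772 and 1320 in G-CSF-Ly6C+ against PBS-Ly6C+ monocytes (4197 above), and 2831 without a series term, or 596 with series A alone, in DT-Ly6C+ against Ly6Cneg monocytes (1752 above). Counts for G-CSF-Ly6C+ against DT-Ly6C+ monocytes (14 above) were 0 in both models, 8 with series B alone, 6 with the replicate block, 24 with array weights and 0 to 23 leaving out 1 array. For DT-Ly6C+ against Ly6Cneg monocytes the additive model called 2398 of all genes. The causes were not tested. Leaving out 1 array at a time gave 13 to 14 of the 34 genes in DT-Ly6C+ against PBS-Ly6C+ monocytes, 12 to 14 in G-CSF-Ly6C+ against PBS-Ly6C+ monocytes, 17 to 20 in Ly6Cneg monocytes against cMoPs and 0 in G-CSF-Ly6C+ against DT-Ly6C+ monocytes. In the comparisons of DT A1 with Ly6Cneg monocytes and with cMoPs, DT A1 itself cannot be left out, and no such counts are given. Of all genes, leaving out 1 array called 15.8 to 17.1% in DT-Ly6C+ and 15.5 to 17.4% in G-CSF-Ly6C+ against PBS-Ly6C+ monocytes. In Ly6Cneg monocytes against cMoPs it called 28.2 to 31%. In series B the deviations from the group means correlated by 0 to 0.09 in the 9 pairs of arrays with the same number. In pairs with different numbers they correlated by -0.063 to 0.047. With so few arrays a group, whether the numbers carry a pairing could not be settled. The fit with a replicate block called 15, 15 and 0 of the 34 genes in DT-Ly6C+ against PBS-Ly6C+, G-CSF-Ly6C+ against PBS-Ly6C+ and G-CSF-Ly6C+ against DT-Ly6C+ monocytes. Of all genes it called 20.6%, 19.9% and 0.0271%. No paired analysis was possible in series A because its groups share fewer than 2 numbers.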
